A study of Mus musculus with 14 samples.

Results

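Whole, unsorted cells of the mouse small intestine were compared with the cells that carry no Sox9-eGFP fluorescence, across all miRNA entries of a small RNA sequencing table. The comparison used the 2 libraries labelled Non-sorted and the 3 labelled Negative, 5 of the 14 libraries of the series, chosen by their labelled cell population. All libraries came from small intestine of C57BL/6J mice that carry Sox9-eGFP, a transgene that makes cells glow green where the gene of Sox9, a transcription factor of the crypt, is active. The other 9 libraries were sorted High, Low and Sublow cells, with 3 libraries each. The labels give no treatment, age, sex or gut segment and do not say whether libraries of a group are separate animals; each p-value then measures only how far these libraries scatter, which may be technical. Negative cells passed a sorter and Non-sorted cells did not, so cell make-up and handling cannot be told apart. In bulk RNA, fewer cells of a type and less RNA per cell cannot be told apart either.

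The small intestinal lining renews itself from stem cells at the crypt base, whose daughters divide, move up the villus and become mostly absorptive enterocytes, with rarer goblet, Paneth, tuft and hormone-secreting enteroendocrine cells. In this reporter mouse, Negative cells have been linked to differentiated cells, Sublow to dividing progenitors, Low to crypt stem cells and High to the enteroendocrine lineage. A miRNA is a short RNA that represses mRNAs which pair with its seed, bases 2 to 8 from its 5′ end, so miRNAs with the same seed can share targets.

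The sequences below belong to miRNAs that were higher in Non-sorted cells, and to 1 neighbour, and are shown so that their shared and differing seeds can be compared. They are RefSeq mature sequences of assembly GRCm38.p6, written 5′ to 3′ with the seed in capitals. The first pair, miR-7a and miR-7b, shared a seed, and miR-7a is made from more than 1 hairpin. The next 3 lie side by side in the Spaca6 locus, where miR-99b-5p is the neighbour that did not pass the test. The others each had a seed that no other higher miRNA carried.
miR-7a-1-5p: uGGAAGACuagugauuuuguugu
miR-7b-5p: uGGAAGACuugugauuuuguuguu
miR-99b-5p: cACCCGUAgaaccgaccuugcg
let-7e-5p: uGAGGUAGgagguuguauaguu
miR-125a-5p: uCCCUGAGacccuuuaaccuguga
miR-139-3p: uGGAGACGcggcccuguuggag
miR-184-3p: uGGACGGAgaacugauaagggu
miR-92b-3p: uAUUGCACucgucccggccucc
miR-1224-5p: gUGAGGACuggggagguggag
miR-132-3p: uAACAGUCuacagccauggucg
By the GRCm38 annotation, miR-7a-1-5p lies at chr13:58392841-58392863 on the minus strand in an intron of Hnrnpk. The miR-7b-5p locus, chr17:56243017-56243040 on the plus strand, overlaps no gene on its strand. miR-99b-5p (chr17:17830194-17830215) and let-7e-5p (chr17:17830366-17830387) lie in introns of Spaca6, and miR-125a-5p (chr17:17830817-17830840) overlaps an exon of it, all on the plus strand. miR-139-3p lies at chr7:101475418-101475439 in an intron of Pde2a, and miR-1224-5p at chr16:20604452-20604472 in an intron of Vwa5b2, both on the plus strand. miR-184-3p (chr9:89802263-89802284) and miR-92b-3p (chr3:89227126-89227147) are on the minus strand outside same-strand genes.

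Values are RPM, miRNA reads scaled to a total of 1e+06 in each library, and differences are Non-sorted minus Negative on the scale of log2(RPM + 1), which understates fold changes of low entries. An entry is a mature miRNA from 1 hairpin, or, where its name carries a signed number, a form read here as starting that many bases from the annotated start. Of 2030 entries, 626 reached 10 RPM in 2 or more of the 14 libraries and were tested, 284 at the annotated start and 342 shifted. Estimated depth was 4.85 and 3.59 M reads (M, 1e+06) in Non-sorted and 5.11, 4.91 and 16.0 M reads in Negative. An entry at 0 had fewer than about 10 reads, so 0 is not absence.

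Non-sorted cells were higher than Negative cells in 20 of the 626 tested entries, and no entry was lower at an adjusted p under 0.05 (limma, Benjamini-Hochberg adjustment over all tested entries). This is 3.19% of the entries tested higher and 0% lower. At an unadjusted p under 0.05, 63 were higher and 15 lower. The 20 entries, 13 at the annotated start and 7 shifted, belong to 12 mature miRNAs: miR-375-3p, miR-7a-5p, miR-7a-2-3p, miR-7b-5p, miR-139-3p, miR-184-3p, miR-92b-3p, miR-1224-5p, let-7e-5p, miR-125a-5p, miR-132-3p and miR-3099-3p. In each of the 20 entries both Non-sorted libraries lay above all 3 Negative libraries, as 115 of all tested entries did (18.4%), while 57 lay below (9.11%). The median difference over all tested entries was 0.10. Without the first Non-sorted library 18 entries were higher and 14 lower, and without the second 28 were higher and 0 lower. Under median-ratio rescaling the split was 20 higher and 5 lower, and under quantile normalization 19 and 3. In a fit of only the 5 compared libraries, 17 of the 20 were tested and 8 passed. There let-7e-5p, miR-184-3p and miR-7a-2-3p (adjusted p = 0.0826 for each), miR-1224-5p (0.123) and miR-7a-1-5p (0.140) lost the call at the same difference. miR-7a-2-3p, miR-3099-3p and the shifted forms with means under 100 RPM fall outside the naming rule and were named after their values were seen.

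**Figure D1:**
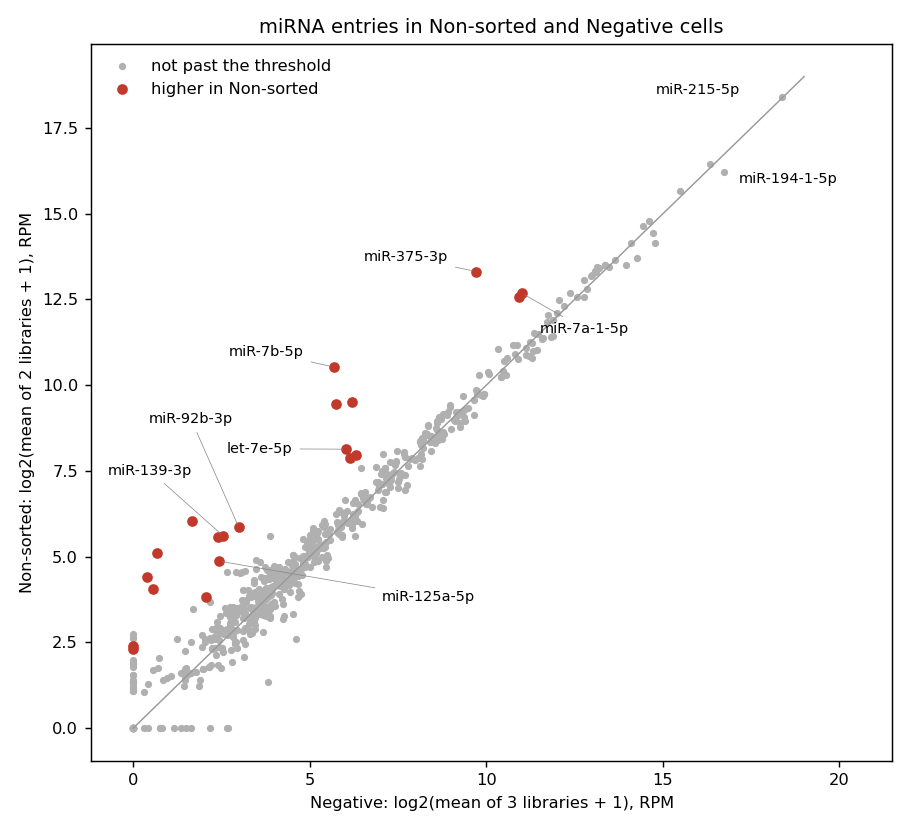
Each point is 1 of the 626 tested entries, with log2(mean RPM + 1) over the 3 Negative libraries on the horizontal axis and over the 2 Non-sorted libraries on the vertical axis; the line marks equal levels. The 20 entries past the threshold (red) all lie above the line, and miR-215-5p, the most abundant entry, lies on it.

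miR-375-3p, a miRNA known from islet and enteroendocrine cells, had the highest level among the higher entries. It measured 12519 and 7862 RPM in the Non-sorted libraries and 657, 724 and 1129.6 RPM in the Negative libraries. Each Non-sorted value was far above the highest Negative value, and the first Non-sorted library was the higher of its pair. The means were 10191 RPM ± 3293 (SD, n = 2) and 837 RPM ± 256 (SD, n = 3), a 12.2-fold ratio, with a log2 difference of 3.61 (SE 0.26; limma, adjusted p = 5.61e-06). Its shifted forms also passed: +1 differed by 3.75, −1 by 3.35 and +2 by 3.21 (limma, adjusted p at most 1.94e-05). The mean of miR-375-3p was 123490 RPM in High, 58075 RPM in Low and 15413 RPM in Sublow cells, so the Non-sorted mean stood at 8.25% of High, 17.5% of Low and 66.1% of Sublow.

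miR-7b-5p, a miRNA abundant in neuroendocrine tissue, had the widest fold ratio among the higher entries that were listed above 0 in every Negative library. It measured 1942 and 1018 RPM in Non-sorted and 40.7, 31.8 and 78.4 RPM in Negative libraries. The groups did not overlap, and the ratio of means was 29.4-fold (log2 difference 4.88, SE 0.37; limma, adjusted p = 5.61e-06). Its +1 form differed by 4.53 (limma, adjusted p = 4.00e-04), while its −1 form measured 3.50 and 4.32 RPM in Non-sorted and was listed at 0 in every Negative library.

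miR-7a-5p, which carries the same seed, measured 8797 and 4333 RPM in Non-sorted and 1956, 1795 and 2427 RPM in Negative libraries, read from the miR-7a-1 hairpin entry. The lower Non-sorted library was still above every Negative library. The ratio was 3.19-fold (log2 difference 1.60, SE 0.29; limma, adjusted p = 0.00600). Without the first Non-sorted library the difference was 1.08 with an adjusted p of 0.0591, and that of the miR-7a-2 entry 1.05 with an adjusted p of 0.0739. The miR-7a-2 entry, whose mature sequence is identical, differed by 1.58 (limma, adjusted p = 0.00733) and cannot be separated from it, and their +1 forms differed by 1.61 and 1.71. The opposite arm, miR-7a-2-3p, comes from the second hairpin alone and measured 46.2 and 20.4 RPM in Non-sorted against 0, 0 and 1.75 RPM in Negative (limma, log2 difference 4.50, adjusted p = 9.14e-05).

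Within the seed family GGAAGAC, the make-up differed as well as the sum. The family total, over miR-7a-1-5p and miR-7b-5p, averaged 8045 RPM in Non-sorted and 2109 RPM in Negative cells. miR-7b made up 18.1% and 19.02% of it in the Non-sorted libraries and 1.74% to 3.13% in the Negative libraries. Mean shares in the sorted Sox9-eGFP fractions were 24.4% in High, 23.8% in Low and 15.1% in Sublow cells. The share in Non-sorted thus lay between Sublow and Low.

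Of the 7 tested members of the enteroendocrine and neuroendocrine list that stayed under 100 RPM in these 5 libraries, 4 passed the threshold. Among all tested entries, 3.19% did. miR-139-3p measured 49.7 and 45.8 RPM in Non-sorted and 4.11, 5.29 and 5.19 RPM in Negative libraries. Both Non-sorted values were close together and 9.81-fold above the Negative mean (log2 difference 3.06, SE 0.24; limma, adjusted p = 5.61e-06). miR-184-3p measured 26.4 and 14.5 RPM against 0, 0 and 0.94 RPM, with a log2 difference of 4.05 (SE 0.34; limma, adjusted p = 6.82e-06). It was listed at 0 in all but 1 Negative library.

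miR-92b-3p measured 78.0 and 35.9 RPM in Non-sorted and 7.30, 6.71 and 6.92 RPM in Negative libraries, an 8.16-fold ratio (log2 difference 2.76, SE 0.30; limma, adjusted p = 8.97e-05). The Negative values lay close together, and the Non-sorted values were further apart. miR-1224-5p, a miRNA made from a short intron, measured 18.2 and 13.3 RPM against 0, 0 and 1.44 RPM (log2 difference 3.62, SE 0.50; limma, adjusted p = 5.46e-04). With a pseudocount of 10 its difference was 1.29 and its adjusted p 0.0696. miR-672-5p did not pass, at 31.3 and 13.95 RPM against 10.4, 6.71 and 2.37 RPM (limma, log2 difference 1.72, adjusted p = 0.0653). It passed without the first Negative library (2.11, adjusted p = 0.0176) or the second Non-sorted library (2.28, adjusted p = 0.0307). The other 2 low members without a call were miR-139-5p, at 12.4 and 8.09 RPM against 0, 2.44 and 4.31 RPM, and miR-153-3p, at 4.95 and 0 RPM against 0 in every Negative library. Without the third Negative library miR-139-5p passed (2.57, adjusted p = 0.0342).

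Across the whole enteroendocrine and neuroendocrine list, 7 of the 12 tested members were higher, beside 3.19% of all tested entries, and none was lower. The median difference was 2.41, beside 0.10 over all entries. The list was assembled with earlier results of these libraries known, so its count is not independent evidence. All 12 differences were above 0, as were 57.99% of those of all tested entries. The members' summed level was 20122 to 29263 RPM in Non-sorted, 7079 to 8427 RPM in Negative, 34592 to 35458 RPM in Sublow, 97871 to 121923 RPM in Low and 190564 to 218292 RPM in High libraries.

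Not every member of that list passed. miR-182-5p and miR-183-5p come from a cluster known from sensory and neuroendocrine cells. miR-182-5p measured 5270.0 and 6219 RPM in Non-sorted and 4029.6, 4363 and 4307 RPM in Negative libraries (log2 difference 0.44; limma, adjusted p = 0.0515). Its libraries did not overlap, and the adjusted p lay just above the threshold; it passed with the replicate number as a block, without the first Non-sorted library and with a filter of 3 libraries. miR-183-5p measured 513 and 559 RPM against 374, 365 and 463 RPM (log2 difference 0.43; limma, adjusted p = 0.113). It passed with the lane as a term (0.52, adjusted p = 0.0356) and without the third Negative library (0.53, adjusted p = 0.0342). miR-375-5p was listed at 0 in all 5 libraries.

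**Figure D2:**
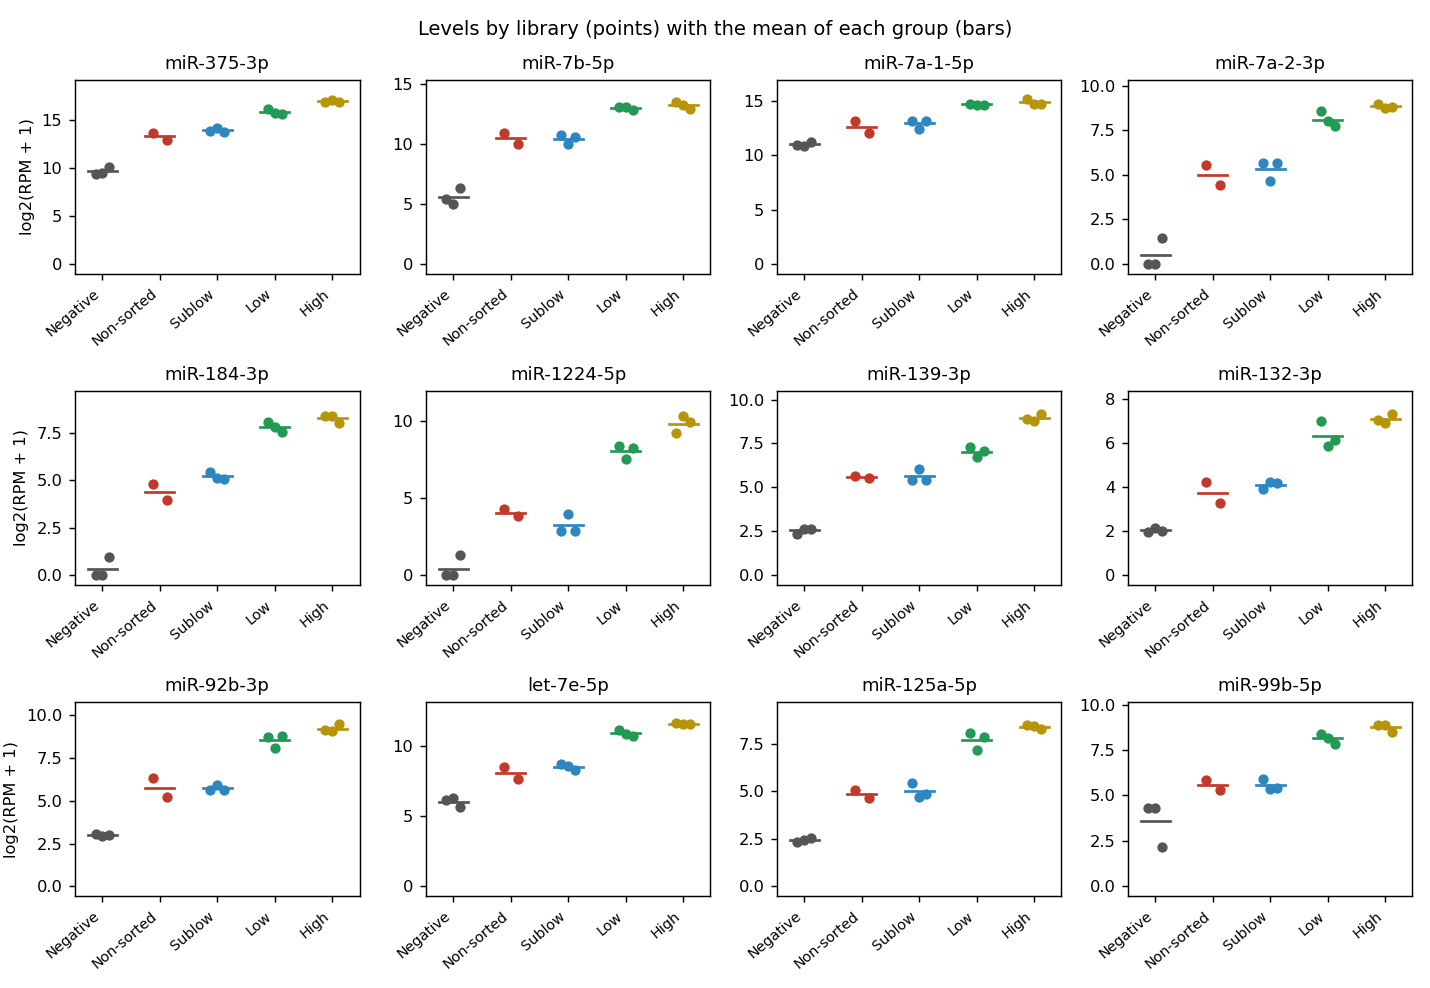
Each panel shows 1 miRNA with log2(RPM + 1) on the vertical axis and the 5 cell populations along the horizontal axis; points are libraries and bars are group means. Non-sorted libraries lie above Negative libraries in all 12 panels, and below the Low and High libraries.

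The cluster of miR-99b, let-7e and miR-125a is a group of neighbouring hairpins with different seeds, and 2 of its 5 tested members passed, beside 3.19% of all tested entries. let-7e-5p measured 360.0 and 200.4 RPM in Non-sorted and 68.4, 75.9 and 49.5 RPM in Negative libraries, a 4.34-fold ratio (log2 difference 2.06, SE 0.25; limma, adjusted p = 1.71e-04). miR-125a-5p measured 32.2 and 24.3 RPM against 4.11, 4.48 and 4.75 RPM, a 6.34-fold ratio (log2 difference 2.41, SE 0.29; limma, adjusted p = 1.71e-04). Both kept the groups apart.

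miR-99b-5p measured 57.7 and 37.9 RPM in Non-sorted and 18.8, 18.9 and 3.56 RPM in Negative libraries (log2 difference 1.98; limma, adjusted p = 0.0687). The third Negative library was well below the others, and without it the difference was 1.27 (adjusted p = 0.0264). It passed as well without the first or the second Negative library (2.33 for each), with a pseudocount of 10 (1.34, adjusted p = 0.0488) and with the replicate block (1.71, adjusted p = 0.0462). miR-99b-3p and miR-125a-3p were above 0 only in the first Non-sorted library, at 7.83 and 3.92 RPM. The 5 tested members had a median difference of 1.98, beside 0.10 over all entries. All 5 differences were above 0, as were 57.99% of those of all tested entries.

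The other tested members of the seed families of let-7e and miR-92b did not pass the test, and most of them are more abundant. let-7e shares the seed GAGGUAG with 8 other tested let-7 miRNAs (let-7a, b, c, d, f, g and i, and miR-98), which are widespread miRNAs of differentiated tissue. None of the 8 passed in either direction, and their median difference was 0.21. let-7b-5p, the most abundant of them, measured 58100.1 and 45689.9 RPM in Non-sorted and 44364.9 to 48094.0 RPM in Negative libraries, with overlap. let-7d-5p came nearest, at 8958 and 8232 RPM against 6719, 7009 and 7021 RPM (log2 difference 0.31; limma, adjusted p = 0.0627). let-7e was 0.169% and 0.252% of the family total in Non-sorted and 0.0426% to 0.0650% in Negative libraries.

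The sequences of let-7b-5p and of the abundant relatives of miR-92b show the shared seed beside differing 3′ ends.
let-7b-5p: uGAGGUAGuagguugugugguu
miR-92a-1-3p: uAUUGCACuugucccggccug
miR-25-3p: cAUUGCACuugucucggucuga
miR-92b made up 0.552% and 1.11% of the AUUGCAC family in Non-sorted and 0.104% to 0.141% in Negative libraries. miR-92a-1-3p measured 4396 and 4358 RPM against 3449, 3902 and 4844 RPM (log2 difference 0.12; limma, adjusted p = 0.986), and the groups overlapped. miR-25-3p measured 2544 and 2102 RPM against 1713, 1606 and 1821 RPM (log2 difference 0.43; limma, adjusted p = 0.196), without overlap, and passed under quantile normalization (0.60, adjusted p = 0.0217), as did the let-7c-1-5p entry.

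Of the 9 neuronal-list members, 7 have an entry and 4 were tested. Only miR-132-3p of these 4 passed, beside 3.19% of all tested entries, and the list median was 0.26. miR-132-3p, an activity-regulated miRNA of neurons, measured 17.9 and 8.65 RPM in Non-sorted and 2.93, 3.46 and 3.06 RPM in Negative libraries (log2 difference 1.71, SE 0.36; limma, adjusted p = 0.0166). The groups did not overlap, but without the first Non-sorted library the difference was 1.22 (adjusted p = 0.144) and without the first Negative library 1.67 (adjusted p = 0.0537). The call was also lost with a pseudocount of 10 (0.80, adjusted p = 0.238) and under quantile normalization (1.43, adjusted p = 0.143). The neuronal miR-9-5p was listed at 0 in all 5 libraries. miR-3099-3p measured 5.15 and 3.35 RPM in Non-sorted and was listed at 0 in every Negative library (limma, adjusted p = 0.0276). Without any 1 of the 5 Non-sorted and Negative libraries its adjusted p was 0.0612 to 0.144.

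The levels of the 20 higher entries in Non-sorted cells lay between those of Negative cells and those of the High and Low cells. In all 20, both Non-sorted libraries were below every High and every Low library, and all 20 passed as lower than High and as lower than Low (limma). miR-132-3p, miR-3099-3p and miR-7b-5p −1 did not reach 10 RPM in 2 of the 5 Non-sorted and Negative libraries. They were tested only through their higher levels in other sorted libraries, so the filter itself favoured their being lower than High and Low. The background was high: 56.4% of tested entries passed against High and 57.3% against Low in either direction, 35.9% passed as lower than High and 43.6% as lower than Low. As a share of the High mean, the Non-sorted means were 1.66% (miR-1224-5p) to 23.7% (miR-7a-2-5p +1) with a median of 9.70%, and of the Low mean 5.85% to 36.3% with a median of 18.7%. These comparisons share the Non-sorted libraries.

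Against Sublow cells, from which 22.2% of tested entries differed in either direction, the share was 56.9% to 802% with a median of 83.6%, and 14 of the 20 entries overlapped the Sublow libraries. None of the 20 passed as lower than Sublow, where 15.2% of tested entries did, and miR-3099-3p alone passed as higher, where 7.03% did, a call lost without either Non-sorted library (adjusted p 0.118 and 0.0802). A missed threshold leaves a range: for miR-7b-5p the Non-sorted minus Sublow difference was 0.02 (95% confidence interval −0.79 to 0.83; limma, adjusted p = 1.0). For miR-375-3p it was −0.62 (−1.18 to −0.06; limma, adjusted p = 0.113) and for miR-184-3p −0.83 (−1.57 to −0.10; limma, adjusted p = 0.105), intervals that lie below 0 before adjustment for the number of entries. The Non-sorted profile as a whole correlated with the Negative profile at r = 0.898 to 0.966 over the 626 entries, with Sublow at 0.859 to 0.945, with Low at 0.759 to 0.822 and with High at 0.708 to 0.739, as a description across entries that share their libraries.

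The miRNAs of enterocytes, which are induced by HNF transcription factors, showed no call. Their sequences are shown because miR-215 and miR-192 share a seed and, with miR-194, are the most abundant miRNAs here.
miR-215-5p: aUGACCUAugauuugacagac
miR-192-5p: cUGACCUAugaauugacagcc
miR-194-1-5p: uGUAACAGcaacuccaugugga
None of the 7 tested members of the HNF list passed in either direction, and the median difference was −0.06. The 7 summed to 470020.0 and 564516 RPM in Non-sorted and 540753 to 544799 RPM in Negative libraries. miR-215-5p took 29.8% and 38.9% of the reads in Non-sorted and 34.5%, 34.1% and 33.5% in Negative libraries. The Non-sorted libraries lay on either side of the Negative ones (log2 difference 0.00, 95% confidence interval −0.29 to 0.29; limma, adjusted p = 1.0). miR-192-5p measured 81442 and 96422 RPM against 82655 to 82816 RPM (log2 difference 0.10; limma, adjusted p = 0.908).

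miR-194-1-5p measured 81616 and 69515 RPM in Non-sorted and 105883, 110365 and 112607 RPM in Negative libraries. Both Non-sorted values were below all Negative values, and the difference of −0.54 did not pass (limma, adjusted p = 0.0938). It passed under median-ratio rescaling (−0.63, adjusted p = 0.0458). With the replicate number as a block it passed as well (−0.51, adjusted p = 0.0462), and without the second Sublow library (−0.54, adjusted p = 0.0431). Against Sublow cells, miR-194-1-5p was higher in Non-sorted by 0.58 (limma, adjusted p = 0.0192) and miR-215-5p by 0.48 (limma, adjusted p = 0.0225). Both calls were lost under quantile normalization (0.39 and 0.00) and without the second or the third Sublow library (adjusted p 0.0513 to 0.0631), that of miR-194-1-5p also without the first Non-sorted library (0.47, adjusted p = 0.119) and that of miR-215-5p also without the second (0.29, adjusted p = 0.244), without a filter and with the lane as a term.

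Markers of differentiated epithelium, 6 of 7 tested, had no member past the threshold and a median difference of −0.21. The 1 member with a difference above 0 was miR-122-5p (limma, 1.45, adjusted p = 0.286). It measured 27.6 and 17.6 RPM in Non-sorted and 6.85, 9.77 and 6.06 RPM in Negative libraries, without overlap. In High libraries it measured 34.9, 112.5 and 25.9 RPM, above every Negative library, so its values here go against the name of its list. miR-378-3p, a miRNA encoded within a metabolic regulator gene, measured 15939 and 11068 RPM in Non-sorted and 18139, 20410.1 and 20657 RPM in Negative libraries. The groups did not overlap (log2 difference −0.57; limma, adjusted p = 0.0763), and it passed under median-ratio rescaling (−0.66, adjusted p = 0.0119) and without the first Non-sorted library (−0.83, adjusted p = 0.00842). miR-203-3p, a miRNA of stratified and differentiating epithelium, measured 2353 and 1162 RPM against 2402 to 2663 RPM (log2 difference −0.60; limma, adjusted p = 0.306), and without the first Non-sorted library it was lower by 1.11 (adjusted p = 0.00550).

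miR-22-3p, which accumulates in differentiated cells, measured 3344 and 4234 RPM in Non-sorted and 3529, 3929 and 3863 RPM in Negative libraries, an overlapping range. Against Sublow it was higher in Non-sorted by 0.90 (limma, adjusted p = 0.00306), and miR-215-3p was higher by 0.86 (limma, adjusted p = 9.77e-04). Both kept their call in every alternative run that included Sublow libraries. miR-378-3p went the other way and was lower than in Sublow by 0.49 (limma, adjusted p = 0.0403). That call was lost in several alternatives, among them median-ratio rescaling (limma, −0.10, adjusted p = 0.696) and quantile normalization (limma, −0.05, adjusted p = 0.828).

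**Figure D3:**
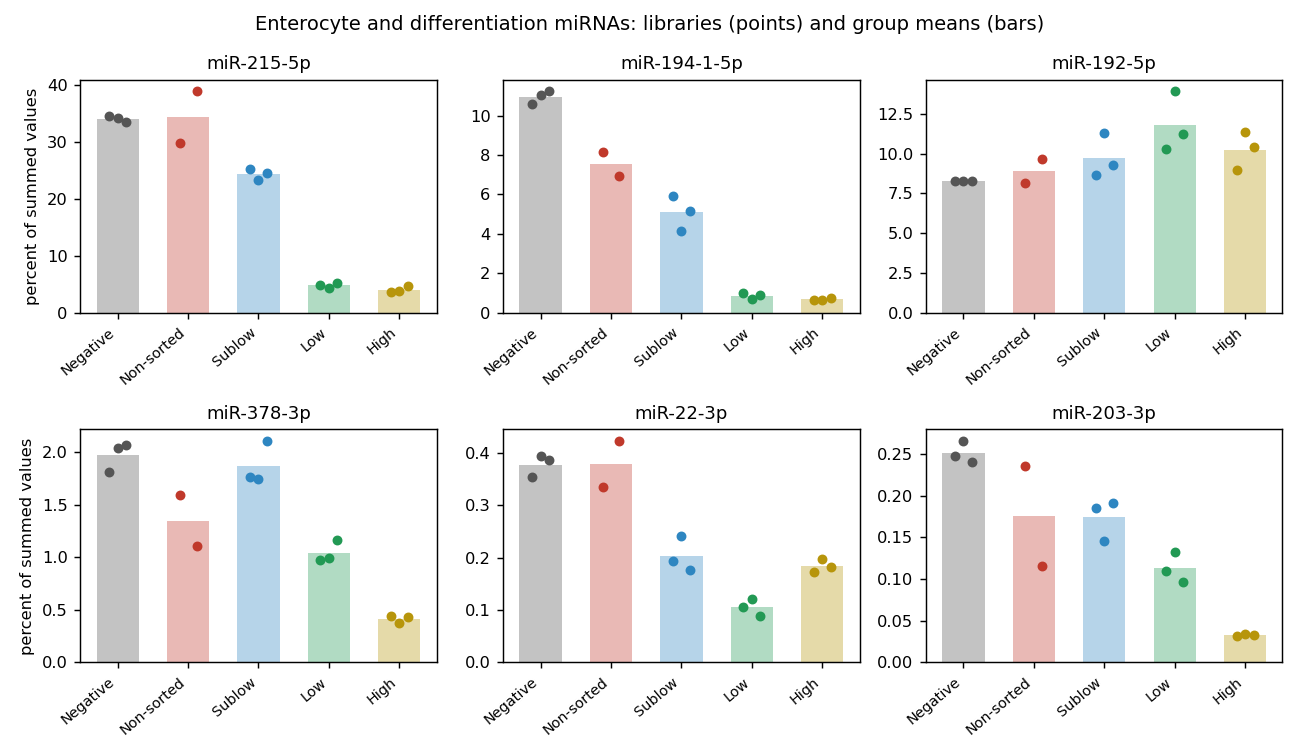
Percent of each library's summed RPM taken by 6 miRNAs of enterocytes and differentiated epithelium, with bars for group means and points for libraries of the 5 populations. The Non-sorted bars of miR-215-5p and miR-22-3p are close to the Negative bars, and those of miR-194-1-5p, miR-378-3p and miR-203-3p are lower, with no entry past the threshold.

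No miRNA of the lists linked to proliferation and to stem cells passed the threshold. Of the miR-17-92 and paralogous clusters, which are induced by MYC and rise in dividing cells, 14 of 15 members were tested, none passed, and the median difference was 0.07. None of the 11 stem cell and proliferation linked members passed, with a median of −0.07. miR-31-5p measured 14222 and 8830 RPM in Non-sorted against 15002 to 16571 RPM in Negative libraries (log2 difference −0.49; limma, adjusted p = 0.157), without overlap. It passed as lower without the first Non-sorted library (−0.84, adjusted p = 0.00194) and under median-ratio rescaling (−0.58, adjusted p = 0.0338). miR-148a-3p measured 1873 and 2361 RPM against 1082, 1064 and 1688 RPM (log2 difference 0.75; limma, adjusted p = 0.172), without overlap. It passed as higher with the replicate block (0.85, adjusted p = 0.0461) and without the third Negative library (0.97, adjusted p = 0.0433). miR-181c-5p measured 226 and 281 RPM against 133, 160 and 110 RPM (log2 difference 0.92; limma, adjusted p = 0.111), without overlap, and passed with the replicate block (0.85, adjusted p = 0.0107). miR-17-5p, the first member of its cluster, measured 431 and 206 RPM against 364 to 384 RPM, on both sides of the Negative range.

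Markers of epithelium and of other cell types were then checked. The 7 tested members of the miR-200 family, which keeps epithelial cells epithelial, summed to 27676 to 30233 RPM in Non-sorted and 25305 to 29813 RPM in Negative libraries, with none past the threshold and a median difference of 0.21. Mesenchymal and smooth muscle miRNAs had 6 of 14 members in the table tested, with 0 past the threshold. Their median difference was 0.57, beside 0.10 over all entries. All 6 differences were above 0, as were 57.99% of those of all tested entries. The list summed to 135 to 148 RPM in Non-sorted and 77.2 to 116 RPM in Negative libraries, without overlap. miR-10b-5p led the list. miR-143-3p measured 33.6 and 16.5 RPM in Non-sorted and 22.5, 17.9 and 9.44 RPM in Negative libraries, with overlap. Listed at 0 in all 5 libraries were 5 members. Among them miR-145-5p and miR-143-5p were at 0 in all 14 libraries, so their 0 cannot show how few such cells were present. The part of this list in the result was not tested.

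Blood and vessel markers were low in both groups. The lymphocyte and myeloid list summed to 99.1 to 118 RPM in Non-sorted and 80.3 to 241 RPM in Negative libraries, with 6 of 9 tested, none past the threshold and a median of −0.79. miR-146a-5p led the list in Non-sorted, at 51.3 and 77.0 RPM against 26.65, 30.9 and 102 RPM in Negative libraries. The defining member miR-142-3p was listed at 0 in all 14 libraries, also where miR-142-5p, its opposite arm, reached 32.3 RPM (first Low library). Its 0 therefore cannot show how few such cells were present. Of the 5 compared libraries, miR-142-5p was listed at 16.0 RPM in the third Negative library and at 0 in the other 4. There miR-150-5p (39.4 RPM) and miR-155-5p (46.7 RPM) were also highest in the third Negative library. The endothelial miR-126-3p and the erythroid miR-451 were listed at 0 in all 5 libraries. In the same 5 libraries miR-126-5p, the opposite arm of miR-126-3p, was above 0. miR-451 was at 0 in all 14 libraries, while the erythroid miR-486-5p was above 0 in all 14. The 0 of miR-126-3p and of miR-451 therefore cannot show how few such cells were present either. The single tested endothelial entry, miR-126-5p, was 3.63 to 6.39 RPM in Non-sorted and 0.81 to 5.09 RPM in Negative libraries, and the single erythroid one, miR-486-5p, was 7.39 to 8.76 RPM and 9.88 to 33.9 RPM. Neither passed.

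The third Negative library stood apart from the other Negative libraries: its correlation with them over the tested entries was 0.905 and 0.919, beside 0.986 between the first and second. It was sequenced in lane 5, and the other 4 libraries in lane 6. The 10 tested pluripotency-cluster miRNAs, which belong to embryonic stem cells, were listed in both Non-sorted and in the first and second Negative libraries and at 0 in the third. miR-295-3p, for example, measured 714 and 663 RPM in Non-sorted and 839, 669 and 0 RPM in Negative libraries, and none of the 10 passed (median difference 2.0; limma, adjusted p = 0.908 for each). Without the third Negative library, 24 entries were higher and 0 lower, and 19 of the 20 higher entries were called again, miR-3099-3p being the exception.

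**Figure D4:**
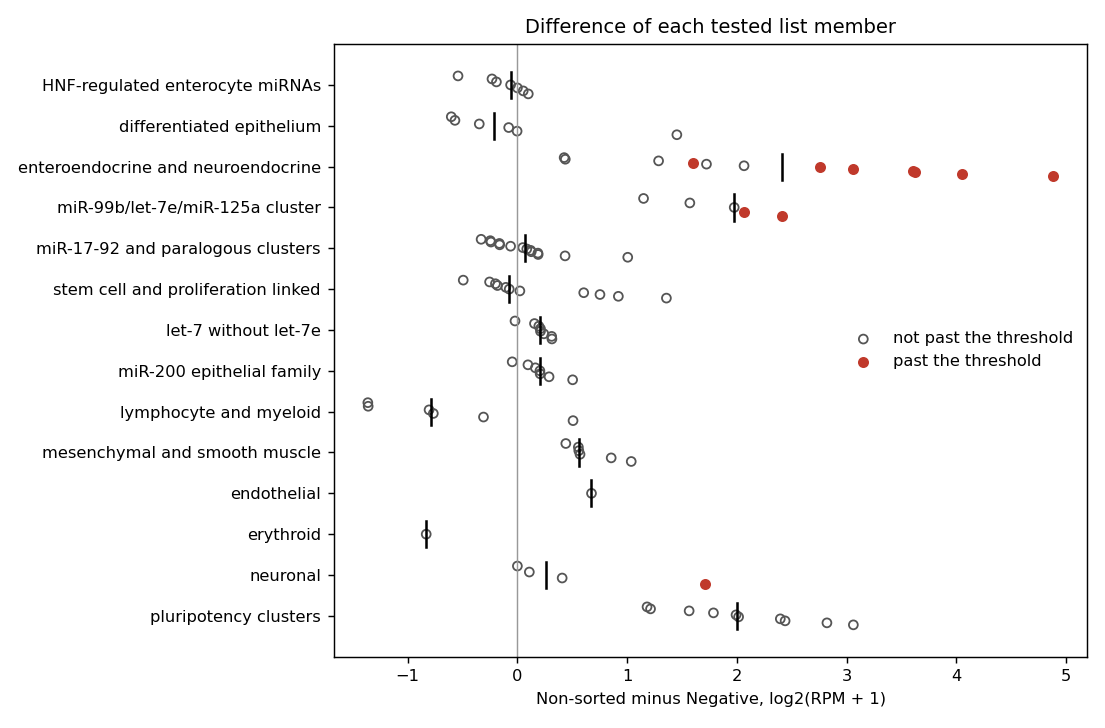
Each circle is 1 tested member of the 14 miRNA lists, placed by its Non-sorted minus Negative difference on the log2(RPM + 1) scale; filled circles passed the threshold and black bars are list medians. All filled circles are in the enteroendocrine, miR-99b cluster and neuronal lists, on the positive side.

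The 2 Non-sorted libraries differed from each other in the higher entries. In 19 of the 20 the first library had the higher value, with a ratio of first to second of 0.81 to 2.62 and a median of 1.75. Over all tested entries, the first library was higher in 411 (65.7%). With the level of every higher entry set by 2 libraries, this spread enters the error of each value given here.

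No entry was higher or lower in Non-sorted cells than in each of the 4 sorted populations at an adjusted p under 0.05 (limma), and at an unadjusted p under 0.05 the counts were 0 and 2. Shifted forms took 7.86% and 6.57% of the reads in Non-sorted and 7.88%, 6.94% and 6.24% in Negative libraries. The groups overlapped (difference 0.19 percentage points; exact permutation test, two-sided, p = 0.8, where 10 arrangements allow no p under 0.1).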

How the data were processed

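Small RNA of 14 mouse small intestinal libraries, made with a TriLink CleanTag kit per the labels, was analysed from 1 table. The authors deposited RPM values, reads scaled to 1e+06 miRNA reads per library, for 2030 entries. The genome build is mm9, per the submitters' processing notes; which aligner and counter were used is not given in the sources used here. Values were analysed as log2(RPM + 1). One linear model of 5 groups was fitted by limma (version 3.58.1, R 4.3.3, with trended empirical Bayes) to the 14 libraries, so the groups share 1 estimate of the spread. All p-values are two-sided and were adjusted by Benjamini-Hochberg over 626 entries, with a threshold of 0.05. An entry needed 10 RPM in 2 libraries, since Non-sorted has 2. Scripts were tested on simulated data. Depth was estimated from the steps between low values: 1.89 to 16.4 M reads (M, 1e+06) over the 14 libraries (median 5.00). The smallest value listed was 9.99 to 10.9 reads, and 69.2% to 85.3% of low values were whole within 0.1 read, so no count test was run.

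Named entries were drawn from several sets, and not every entry of the sets is reported. Per direction, these were the 15 most changed annotated-start entries that passed, did not overlap and averaged 100 RPM or more in the higher group. Up to 5 shifted ones were added by the same rule. The other sets were the 10 with the largest mean and members of 14 lists (HNF-regulated enterocyte, differentiated epithelium, enteroendocrine and neuroendocrine, miR-99b cluster, miR-17-92, stem cell, let-7, miR-200, lymphocyte and myeloid, mesenchymal, endothelial, erythroid, neuronal, pluripotency). Members and lists were chosen with earlier results of these data known. RefSeq sequences (GRCm38.p6) matched 242 of 284 tested annotated-start entries, and 12 of the 13 higher ones. Host genes come from GENCODE annotation of GRCm38. Where a mature miRNA has several hairpin entries, the most abundant represents it. Alternatives were other pseudocounts, filters, scalings, a lane term, a replicate block, a fit of the 5 libraries alone and leaving out each library. Figures used matplotlib 3.10.9 in Python 3.11.15.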

Additional observations from a re-analysis of the deposited data

How the results depend on the processing

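The count of entries higher in Non-sorted was 17 to 25 under all pseudocounts, filters, scalings, the lane term and the replicate block, and 8 in a fit of only the 5 Non-sorted and Negative libraries, where 453 entries and 17 of the 20 were tested. Leaving out 1 library gave 18 to 28 higher, 20 to 32 past the threshold and 0 to 14 lower entries. The lower count was 1 without a filter, 5 under median-ratio rescaling, 3 under quantile normalization, and 0 otherwise outside the block. Without the second Sublow library 24 entries were higher and 2 lower, and without the second Negative library 20 and 1. The same replicate number deviated together with r = 0.143 and 0.0022 in the 2 possible pairs. With 2 Non-sorted libraries, the deviations of the first mirror those of the second, so this check cannot decide whether numbers pair libraries. The library names carry a code shared by the same replicate number in every population, and its meaning is not given. The main fit held no replicate term. With the replicate block 25 entries were higher and 1 lower, with all 20 called again. Entries past the threshold against Sublow numbered 139, and 81 without a filter, 64 under median-ratio rescaling, 87 under quantile normalization and 69 with the lane term; leaving out 1 library gave 58 (without the second Non-sorted library) to 150. Against Low the count of 359 was 202 under median-ratio rescaling and 183 with the lane term, and against High 353 was 154 with the lane term. Entries lower than each sorted population numbered 0 to 7 with 1 library left out. The difference of miR-215-5p was −0.0861 under median-ratio rescaling and −0.19 to 0.19 with 1 library left out; that of miR-182-5p was −0.0568 and of miR-92a-1-3p −0.0662 under quantile normalization; and that of miR-22-3p was −0.17 to 0.17 and of miR-192-5p −0.0226 to 0.221 with 1 library left out. The difference in shifted share was −0.45 to 0.84 percentage points with 1 library left out, and negative without the first Non-sorted library or the third Negative library. Of the other single-entry values, 58 lost and 28 gained a call with the same direction. The cause was not tested.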

Other observations

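Both Non-sorted libraries lay above all 12 sorted libraries in 3 tested entries (miR-215-5p +5, miR-363-3p +1 and miR-5105 +4) and below all 12 in 8 (miR-1843-3p, miR-28-5p, miR-148b-5p, miR-486-5p, miR-16-1-5p +1, miR-16-2-5p +1, miR-484 and miR-27b-3p −1). These were named after their values were seen, and none passed against all 4 populations.

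The pluripotency-cluster miRNAs were listed in 7 of the 14 libraries: both Non-sorted, the first and second Negative, and the second Sublow, Low and High libraries. Their summed level was 1064 to 2436 RPM there and 0 in the other 7.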
